A study of Mus musculus with 12 samples.

Results

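Foxo factors and the ubiquitin ligases that are linked to muscle atrophy were followed in C2C12 cells in which Bach1 had been silenced. The 10 genes are the transcription factors Foxo1, Foxo3 and Foxo4 and the ligases Fbxo32, Trim63, Trim54, Trim55, Fbxo30, Fbxo40 and Mul1, and every probe with one of these symbols in the deposited table was taken, whatever its values. They have 18 probes out of 56605, 7 for Foxo factors and 11 for ligases, among 27306 gene symbols on the array. C2C12 is a mouse C3H muscle myoblast line that fuses into myotubes when confluent cells are moved to medium with 2% horse serum. RNA was measured in siControl and siBach1 cells at day 0, when the cells were confluent and not yet induced, and at day 2 of differentiation, with 3 arrays for each of the 4 groups and 1 RNA sample per array. The siControl cells received a negative control siRNA by the same transfection, and per the study's methods a single siRNA against Bach1, named siBach1-2, was used on the arrays, so every silencing effect below is that of 1 siRNA in 1 cell line. Bach1 is a haem-sensitive repressor that binds DNA with small Maf proteins.

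Foxo factors are transcription factors that insulin and IGF signalling holds in the cytoplasm through phosphorylation by Akt. When this signalling is low they enter the nucleus of muscle cells and raise genes of protein breakdown and autophagy. Fbxo32 (atrogin, an F-box subunit of an SCF ligase) and Trim63 (MuRF1, a RING ligase of the sarcomere) are the best known of these genes in wasting muscle, and both are also used as readouts of Foxo activity. Trim54 and Trim55 are close relatives of Trim63 that bind microtubules and the sarcomere, Fbxo30 and Fbxo40 are further F-box proteins of muscle, and Mul1 is a ligase of the outer mitochondrial membrane.

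All values below are log2 signals minus the 75th percentile of their array, so that 0 is the signal of that percentile, and differences between groups are log2 fold changes with standard errors (SE) from limma. A probe was tested if at least 1 group had a scanner call of well above background in each of its 3 arrays, which 15 of the 18 probes met, covering 9 of the 10 genes. The probes not tested were both of Foxo4 and 1 of the 2 of Fbxo40. A Fbxo40 probe (A_52_P279557) and a Trim63 probe (A_51_P115335) passed only through siBach1 cells at day 2, where their signal was highest, so counts over the tested probes are given as description. A probe was called where its adjusted p (Benjamini-Hochberg over all 29664 tested probes) was under 0.05. The share of probes above background was 47.6% to 58.8% per array. The silenced gene had log2 signals of 1.55 to 1.78 (siControl) and -0.22 to 0.18 (siBach1) at day 0, and of 2.55 to 2.58 and 0.56 to 0.65 at day 2, so Bach1 was lower in every siBach1 array. Its target Hmox1, haem oxygenase, was higher by 3.30 and 3.12 at the 2 days. The muscle filament gene Des read 4.59 or more on every array, while Cdh5, Adgre1, Adipoq and Rbfox3, which mark endothelial, macrophage, fat and nerve cells, were above background in 0 arrays.

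RefSeq promoters (GRCm38.p6) were found for 7 of the 10 genes, Foxo1, Foxo3, Trim63, Trim54, Fbxo30, Fbxo40 and Mul1. The 250 bases before the start were searched on both strands for the FOXO element GTAAACA, the AP-1 core TGAGTCA, the Maf recognition element, which is that core directly preceded by TGC and so always overlaps it, and the E-box CAGCTG bound by myogenic factors. The FOXO element was present in 3.17% of all 32851 promoters of the table, the AP-1 core in 4.46%, the partial Maf element in 0.134% and the E-box in 13%. Of the 8 promoters of these genes (Fbxo40 has 2), 1 held the FOXO element, 1 the AP-1 core, 0 the partial Maf element and 4 the E-box. The 3 genes with a match are shown from 5′ to 3′ on the gene's strand, with the matches in capitals, because their windows hold the motifs searched. Trim63 (chr4:134314870-134315119, plus strand) has the FOXO element as TGTTTAC 194 bases before its start and an E-box at 72. Trim54 (chr5:31116362-31116611, plus strand) has the AP-1 core at 139 and an E-box at 113. Fbxo40 (chr16:36990468-36990717, minus strand) has E-boxes at 81 and 53, and its other promoter has 1 at 89.
Trim63: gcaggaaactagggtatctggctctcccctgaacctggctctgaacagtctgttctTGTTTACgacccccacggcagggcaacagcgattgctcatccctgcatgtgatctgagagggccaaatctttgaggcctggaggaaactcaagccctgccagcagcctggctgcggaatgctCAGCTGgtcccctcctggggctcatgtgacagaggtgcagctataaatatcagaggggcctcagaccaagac
Trim54: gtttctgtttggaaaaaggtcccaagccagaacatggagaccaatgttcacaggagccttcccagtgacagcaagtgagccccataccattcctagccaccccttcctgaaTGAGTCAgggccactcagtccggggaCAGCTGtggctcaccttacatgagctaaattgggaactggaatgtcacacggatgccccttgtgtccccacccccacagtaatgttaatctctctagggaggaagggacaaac
Fbxo40: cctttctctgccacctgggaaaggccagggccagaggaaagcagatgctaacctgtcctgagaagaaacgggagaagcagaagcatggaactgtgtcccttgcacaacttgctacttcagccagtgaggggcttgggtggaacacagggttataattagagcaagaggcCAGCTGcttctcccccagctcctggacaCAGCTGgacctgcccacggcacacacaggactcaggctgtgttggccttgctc
A match of letters is a description of these windows and not a measured binding site.

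The first comparison asked which of these genes differed with Bach1 silencing in confluent cells that had not been induced. Fbxo32, Trim54 and Foxo3 were higher in siBach1 cells at day 0, by 2.35-fold for Fbxo32, 1.96-fold for Trim54 and 1.49-fold and 1.29-fold for a pair of Foxo3 probes. Of the 15 tested probes, 4 were called, all higher and 0 lower, where 17.1% of all tested probes were called, 8.8% higher and 8.32% lower. Only Fbxo32 was called with a fold of at least 2, against 2.79% of tested probes. By the same limma fit 7 of the 15 had an unadjusted p under 0.05, a looser limit than that of the shares above, so this count cannot be set against them. The siControl and siBach1 arrays did not overlap in 6 of the 15 probes, against 37.3% of all tested probes.

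Fbxo32 at day 0 read -1.33, -1.49 and -1.73 in the siControl arrays and -0.18, -0.45 and -0.22 in the siBach1 arrays. Every siBach1 array was thus above every siControl array by a distance larger than the spread within either group. The difference was 1.24 (SE 0.12, limma, adjusted p 1.13e-04). It was 1.09 on slide 1, which held replicates 1 and 2, and 1.52 on slide 2, which held replicate 3.

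Trim54 at day 0 read 2.63, 2.50 and 2.54 in siControl and 3.43, 3.50 and 3.64 in siBach1 cells. The groups lay far apart relative to their SDs of 0.07 and 0.11 (n = 3). The difference was 0.97 (SE 0.08, limma, adjusted p 3.83e-05), 0.90 on slide 1 and 1.10 on slide 2. Fbxo32 and Trim54 kept their calls at day 0 in every one of the 24 alternative settings and left-out arrays that were run. Of 6 myogenic markers 3 were higher with silencing at day 0, Cdh15 by 0.45, Itga7 by 0.32 and Ncam1 by 0.30, where 19.9% of all genes were called and 10.1% higher. By limma 0 of 10 markers of differentiated muscle were called at day 0 and 1 had an unadjusted p under 0.05. The part of these markers in the ligase results at day 0 was not tested.

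Trim63 was less clear at day 0. Its brightest probe, A_52_P517224, was above background throughout and read -2.78, -3.33 and -3.43 in siControl against -2.71, -2.86 and -2.88 in siBach1 cells, so the groups overlapped and the difference of 0.37 was not called (95% interval 0.02 to 0.71, limma, adjusted p 0.135). The other Trim63 probes were dim at day 0, with 1 and 1 of 3 siControl arrays and 2 and 0 of 3 siBach1 arrays above background, and gave 0.60 (A_55_P2106745) and -0.91 (A_51_P115335) with limma adjusted p of 0.258 and 0.366. Without siControl day 0 replicate 1, the highest of its group, A_52_P517224 gave 0.57 and A_55_P2106745 1.00, both called (adjusted p 0.00962 and 0.0376), and normexp correction also called A_52_P517224 (adjusted p 0.0271). Trim55 read -3.58, -3.98 and -3.47 in siControl and -3.22, -3.42 and -2.61 in siBach1 cells, groups that just failed to overlap, with a difference of 0.60 (SE 0.20, limma, adjusted p 0.0636). Fbxo30 was similar, at -0.69, -0.48 and -0.50 against -0.33, -0.21 and 0.24, a difference of 0.45 (SE 0.15, limma, adjusted p 0.0638). With replicate number as a block, Trim55 and Fbxo30 were called, with limma adjusted p of 0.0385 and 0.00963. Trim55 was also called without siBach1 day 0 replicate 2 (adjusted p 0.0318) and Fbxo30 without siBach1 day 0 replicate 1 (adjusted p 0.0413). The replicate block took the number of these probes called at day 0 from 4 to 7, and the share of all tested probes from 17.1% to 27.5%.

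Mul1 and Fbxo40 showed no called difference at day 0. The brighter Mul1 probe (A_55_P2150786) differed by -0.07, with a 95% interval of -0.25 to 0.12 (limma, adjusted p 0.646), and the dimmer one (A_55_P2150781) by 0.29 with a wide interval of -0.58 to 1.16. Fbxo40 was not well above background on any array of either group with its tested probe, so no fold is given for it at day 0.

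**Figure D1:**
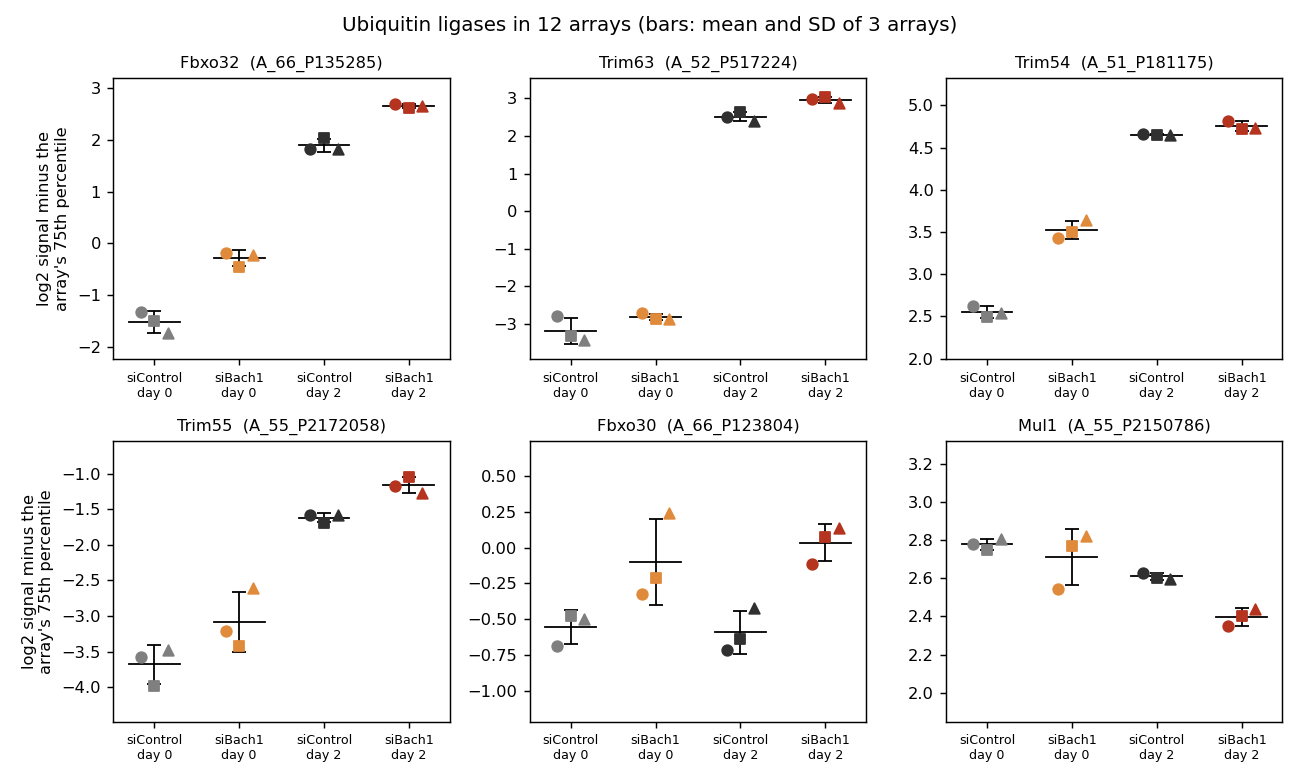
Log2 signal minus the array's 75th percentile (vertical axis) of 1 probe each of Fbxo32, Trim63, Trim54, Trim55, Fbxo30 and Mul1 in the 4 groups. Circles, squares and triangles are replicates 1, 2 and 3, lines and bars are the mean and SD of 3 arrays, and each panel has its own range. Trim54 in siBach1 cells sat at 3.43 to 3.64 at day 0, between the siControl levels at the 2 days, and at 4.72 to 4.82 at day 2, close to siControl.

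At day 2 of differentiation Fbxo32 and Fbxo30 were higher in siBach1 cells, by 1.69-fold and 1.54-fold, and Trim54 was not called different. Fbxo40 also read higher, but its probe was tested only because siBach1 cells at day 2 lifted it above background, so it is given as a description. Of the 15 tested probes, 3 were called with Fbxo40 and 2 without it, all higher and 0 lower, where 12% of all tested probes were called, 5.75% higher and 6.26% lower. Only Fbxo40 was called with a fold of at least 2, against 2.17% of tested probes. By the same limma fit 6 of the 15 had an unadjusted p under 0.05, among them Mul1 A_55_P2150786, which was lower in siBach1 cells. This limit is looser than that of the shares above, so the count cannot be set against them. Groups did not overlap in 8 of the 15 probes, against 32.8% of all tested probes.

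Fbxo40 read -4.02, -5.13 and -4.49 in the siControl arrays and -1.95, -2.49 and -1.94 in the siBach1 arrays at day 2 with its tested probe (A_52_P279557). All 3 siBach1 arrays were well above background and only 1 of 3 siControl arrays was, so the lower level was measured on a single array. The fitted difference was 2.42 (SE 0.33, limma, adjusted p 0.00166), which is not a measured fold and, given how the probe entered the test, no support for a difference. Its size depended on the background correction, since normexp correction gave 0.73 (limma, adjusted p 0.00196), and after Benjamini-Hochberg adjustment the methods' t-test did not call it (adjusted p 0.0584). The other Fbxo40 probe (A_55_P2016307), which was not tested, read -5.20, -6.26 and -5.45 in siControl and -4.48, -4.32 and -2.13 in siBach1 cells. It was well above background on 0 of 3 and 2 of 3 of these arrays. As siBach1 replicate 2 was also not above background, no fold or bound is given for this probe. Fbxo40 is known as a muscle F-box protein that marks the insulin receptor substrate Irs1 for breakdown, and Irs1 mRNA was itself higher at day 2 by 0.39 (SE 0.11, limma, adjusted p 0.0384).

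**Figure D2:**
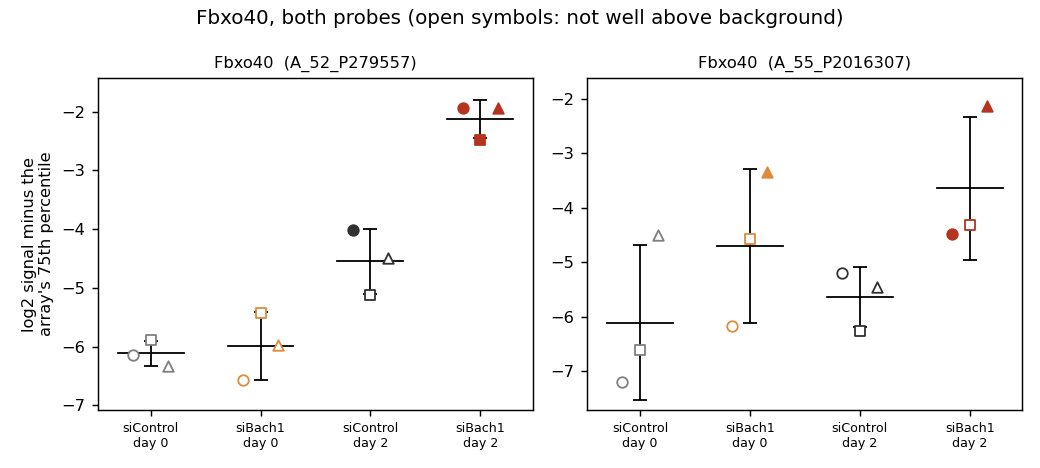
Log2 signal minus the array's 75th percentile of both Fbxo40 probes in the 4 groups, with symbols for replicates 1 (circle), 2 (square) and 3 (triangle) and lines for the mean and SD of 3 arrays. Open symbols are arrays on which the probe was not well above background. With A_52_P279557 the filled symbols are 3 of 3 in siBach1 day 2 and 1 of 3 in siControl day 2.

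Fbxo32 at day 2 read 1.83, 2.04 and 1.82 in siControl and 2.69, 2.62 and 2.66 in siBach1 cells. The siBach1 arrays lay close together (SD 0.04, n = 3) and above all siControl arrays. The difference was 0.76 (SE 0.12, limma, adjusted p 0.00355), 0.72 on slide 1 and 0.84 on slide 2, and it stayed called in all 24 other settings. Fbxo30 read -0.71, -0.64 and -0.42 in siControl and -0.11, 0.07 and 0.14 in siBach1 cells, without overlap. Its difference of 0.62 (SE 0.15, limma, adjusted p 0.0242) was 0.65 on slide 1 and 0.56 on slide 2. The call for Fbxo30 was lost without siControl day 2 replicate 1 (adjusted p 0.0828) or 2 (0.0616), without siBach1 day 2 replicate 2 (0.0692) or 3 (0.0758), when dim probes were kept (0.0931) and with the methods' t-test after Benjamini-Hochberg adjustment (0.0745).

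The MuRF genes other than Trim54 lay slightly higher in siBach1 cells at day 2, without passing the test in the main fit, which had no block. Trim63 read 2.51, 2.63 and 2.39 in siControl and 2.97, 3.03 and 2.86 in siBach1 cells with A_52_P517224. These groups did not overlap, and the difference was 0.44 (SE 0.15, limma, adjusted p 0.0897), with 0.43 on slide 1 and 0.47 on slide 2. It was called with replicate number as a block (adjusted p 0.0417), with normexp correction (0.0111) and without siControl day 0 replicate 1 (0.0209). The probe A_55_P2106745 gave 1.20, 1.21 and 0.96 against 1.78, 1.81 and 1.50, a difference of 0.57 with a wider error (SE 0.33, limma, adjusted p 0.31) that was called with normexp correction (0.0101). The dim Trim63 probe A_51_P115335, tested only through siBach1 cells at day 2, differed by 0.41 (SE 0.63, limma, adjusted p 0.736) between groups that overlapped. Trim55 differed by 0.46 (SE 0.20, limma, adjusted p 0.167) between groups that did not overlap, -1.58, -1.69 and -1.58 against -1.17, -1.05 and -1.27, and was called with only the day 2 arrays (adjusted p 0.0479). For Trim54 the groups were 4.66, 4.65 and 4.65 against 4.82, 4.72 and 4.73, and the difference was 0.10 with a 95% interval of -0.07 to 0.28 (limma, adjusted p 0.447). Mul1 lay the other way with its brighter probe, at 2.63, 2.60 and 2.60 in siControl and 2.35, 2.40 and 2.44 in siBach1 cells, a difference of -0.21 that was not called (limma, adjusted p 0.126), though the methods' t-test called it after adjustment (0.0491). Its dimmer probe (A_55_P2150781) differed by -0.50 and was not called (limma, adjusted p 0.463).

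Other markers of the culture moved with silencing at day 2. Of 10 markers of differentiated muscle, 6 were lower in siBach1 cells, led by Actn2 at -1.93, Mb at -1.16 and Myh8 at -1.01, and 0 were higher, where 13.8% of all genes were called and 7.4% lower. The mean log2 signal of these 10 markers was 6.42 to 6.56 in siControl and 5.53 to 5.85 in siBach1 arrays at day 2, and 0.99 to 1.57 and 0.76 to 1.33 at day 0. The mean of 6 myogenic markers was 4.57 to 4.59 and 4.15 to 4.24 at day 2, and 3.70 to 3.79 and 3.69 to 3.91 at day 0. Of these 6, Myod1 (-0.48) and Itga7 (-0.34) were lower with silencing at day 2. Of 10 markers of cells that the culture should lack, 4 were bright enough to test, and their mean of -2.05 to -1.53 in siControl and -2.12 to -1.38 in siBach1 arrays at day 2 overlapped. The part of these shifts in the ligase results was not tested, and in RNA from a whole culture more expressing cells and more RNA per cell cannot be told apart. Fbxo32 and Fbxo30 were higher and 6 of the 10 markers of differentiated muscle were lower at day 2, and a relation between these was not tested.

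The silencing effect itself was then compared between the days, as the effect at day 2 minus that at day 0. Of the 15 tested probes 2 were called, Trim54 and the Fbxo40 probe that only siBach1 cells at day 2 brought into the test, where 4.59% of all tested probes were called, 2.39% with a higher and 2.2% with a lower effect at day 2. With a fold of at least 2 only Fbxo40 was called, against 1.44%. By the same limma fit 4 of the 15 had an unadjusted p under 0.05, again a looser limit than that of the shares above. Trim54 had a smaller effect at day 2, by -0.87 (SE 0.11, limma, adjusted p 0.00619), with -0.79 on slide 1 and -1.02 on slide 2. That call was lost on slide 1 alone (adjusted p 0.0664) and when dim probes were kept (0.0652). For Fbxo40 the fitted value was 2.30 (SE 0.46, limma, adjusted p 0.0241), but its day 0 term compares signals that were not above background in either group, so neither the size nor the call is a measured difference. That call was lost with normexp correction (adjusted p 0.0932), quantile normalization (0.0564) and no filter (0.107), on slide 1 alone (0.126) and without any 1 of siControl day 0 replicates 1 and 2 and siBach1 day 2 replicates 1 and 3 (0.0547 to 0.0657). The effects on Fbxo32 (-0.48, 95% interval -0.85 to -0.10, limma, adjusted p 0.134) and on Fbxo30 (0.17, -0.30 to 0.64, adjusted p 0.723) were not called different between days.

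Day 2 was also compared with day 0 within each siRNA. Trim63, Fbxo32, Trim54 and Trim55 were higher at day 2 in siControl cells, led by Trim63 at 51.7-fold (5.69, SE 0.15) with A_52_P517224. The Trim63 probe A_55_P2106745 gave 5.86 (SE 0.33), but it was above background on only 1 of 3 siControl arrays at day 0, so that its low level was mostly not measured. Fbxo32 was higher by 3.41 (SE 0.12), Trim54 by 4.28-fold (2.10, SE 0.08) and Trim55 by 4.18-fold (2.06, SE 0.20), and the highest of their limma adjusted p was 1e-05, for Trim55. In all, 12 of 15 probes were called higher and 0 lower, where 53.4% of tested probes were called, 24.6% higher and 28.7% lower. Of these 12, 8 had a fitted change of at least 2-fold, against 10.5% of tested probes. The 8 include Fbxo40 A_52_P279557, whose fold was not measured, and the dim Trim63 probe A_51_P115335. Of the 15 probes, 13 did not overlap between days, against 61.9% of tested probes. Fbxo30 differed by -0.04 (95% interval -0.37 to 0.29), and the Mul1 probes by -0.17 and 0.70, none called in the main fit. Neither Mul1 probe overlapped between days. The first (A_55_P2150786) was called in 2 of its 24 other settings and the second (A_55_P2150781) in 4 of its 23. For the second these included leaving out siBach1 day 2 replicate 3 (limma, adjusted p 0.0227), normexp correction (0.019) and only the siControl arrays (0.0185). Fbxo40 was above background on 0 of 3 arrays at day 0 and 1 of 3 at day 2 in siControl cells, so no fold or bound is given for it. The dim Trim63 probe A_51_P115335 was higher by 1.65 with a limma adjusted p of 0.0461, a call that was lost in 15 of its 23 other settings, among them 9 of the 12 left-out arrays.

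In siBach1 cells 11 of 15 probes were higher at day 2 and 1 was lower, where 56.1% of tested probes were called, 23.8% higher and 32.3% lower. A fitted fold of at least 2 was reached by 8 of the 11, against 10.9% of tested probes, and 12 of the 15 did not overlap between days, against 61.3%. Each of these counts includes Fbxo40 A_52_P279557 and Trim63 A_51_P115335, which were tested only through siBach1 cells at day 2. Passing that filter favoured a rise in siBach1 cells, so the counts are description and no support for a rise. Trim63 was higher by 5.77 (SE 0.15) with A_52_P517224 and by 5.84 (SE 0.33) with A_55_P2106745, which was above background on 2 of 3 arrays at day 0. Fbxo32 was higher by 2.94 (SE 0.12), Trim55 by 1.92 (SE 0.20) and Trim54 by 1.23 (SE 0.08). Fbxo40 was above background on 0 of 3 arrays at day 0 and 3 of 3 at day 2. Its level was at least 4.76-fold higher at day 2, a bound set by the lowest signals called above background at day 0. Because of how the probe entered the test, this bound is given as description. The probe that was lower was Mul1 A_55_P2150786, by -0.32 (SE 0.08, limma, adjusted p 0.00796), and with quantile normalization that call was lost (-0.14, adjusted p 0.163). Comparisons within siControl and within siBach1 share the arrays of the silencing effects, so these values are given side by side and not as separate evidence.

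The levels of a gene can be put in order over the 4 groups. For Fbxo32 the order was siControl day 0, siBach1 day 0, siControl day 2 and siBach1 day 2, with means of -1.52, -0.28, 1.90 and 2.66 and no overlap between neighbours. Trim54 had the same order, with means of 2.55, 3.52, 4.65 and 4.76, and its neighbours at day 2 were not called different. For Trim63 A_52_P517224 the means were -3.18, -2.82, 2.51 and 2.96, and neighbours within a day were not called different. For Fbxo30 the order followed the siRNA and not the day, with means of -0.59 in siControl at day 2, -0.55 in siControl at day 0, -0.10 in siBach1 at day 0 and 0.03 in siBach1 at day 2.

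**Figure D3:**
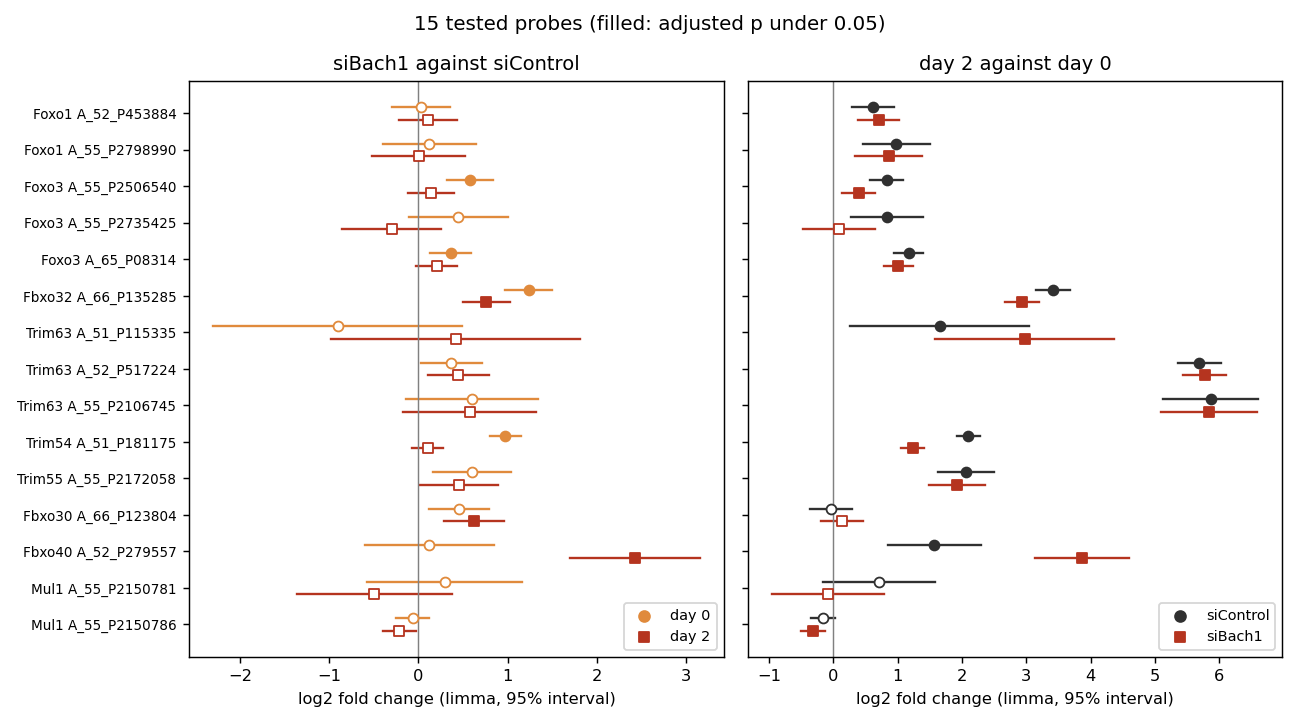
Log2 fold changes from limma with 95% intervals (horizontal axis) for the 15 tested probes, siBach1 against siControl at day 0 (circles) and day 2 (squares) on the left and day 2 against day 0 in siControl (circles) and siBach1 (squares) on the right. Filled symbols have an adjusted p under 0.05. On the left 4 probes are filled at day 0 and 3 at day 2, all to the right of 0, and on the right Trim63 lies farthest from 0, at 5.69 to 5.86 with its brighter probes, of which A_55_P2106745 was dim at day 0.

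Among the Foxo factors, Foxo3 was higher with silencing at day 0 and Foxo1 was not called different at either day. Foxo3 A_55_P2506540 read -3.002, -3.07 and -2.84 in siControl and -2.49, -2.49 and -2.19 in siBach1 cells at day 0. The groups did not overlap, and the difference was 0.58 (SE 0.12, limma, adjusted p 0.00726), with 0.55 on slide 1 and 0.65 on slide 2. It was called in all other settings except the methods' t-test after Benjamini-Hochberg adjustment (adjusted p 0.0652). Foxo3 A_65_P08314 read -0.51, -0.57 and -0.37 in siControl and -0.16, -0.21 and -0.01 in siBach1 cells, a smaller difference of 0.36 (SE 0.10, limma, adjusted p 0.0367). That call was lost on slide 1 alone (adjusted p 0.082), with only the day 0 arrays (0.0687), with no filter (0.155), with the methods' t-test after adjustment (0.0805) and without any 1 of 6 arrays (0.0525 to 0.127). These were siBach1 replicates 1, 2 and 3 and siControl replicates 1 and 2 of day 0, and siBach1 day 2 replicate 1. The dimmest Foxo3 probe (A_55_P2735425) overlapped between groups, at -3.28, -3.68 and -3.88 against -3.09, -2.78 and -3.63, and its difference of 0.45 was not called (SE 0.25, limma, adjusted p 0.257). With the replicate block it was called (adjusted p 0.0477), as was its difference between days of -0.75 (adjusted p 0.0454).

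At day 2 the Foxo3 probes differed by 0.14, -0.30 and 0.20 between siBach1 and siControl cells, and no probe was called (limma, adjusted p 0.236 to 0.491). At day 0 Foxo1 A_55_P2798990 read 0.83, 0.74 and 1.38 in siControl against 1.01, 0.76 and 1.53 in siBach1 arrays. At day 2 it read 2.08, 1.73 and 2.06 against 1.90, 1.72 and 2.27. The siRNA groups overlapped at both days while all day 2 arrays lay above all day 0 arrays. The silencing effects on this probe were 0.12 (95% interval -0.40 to 0.64) and 0.00 (-0.52 to 0.53), and those on A_52_P453884 were 0.03 (-0.30 to 0.35) and 0.11 (-0.21 to 0.43), so that effects of these sizes cannot be told from 0 with 3 arrays a group. Foxo4 was not measured well enough to test. Its probe A_51_P200875 was above background on 0, 0, 1 and 1 of 3 arrays in siControl day 0, siBach1 day 0, siControl day 2 and siBach1 day 2 cells, and its other probe on 0 arrays.

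Foxo1 and Foxo3 were both higher at day 2 than at day 0. In siControl cells Foxo1 was higher by 0.62 (SE 0.15) and 0.98 (SE 0.23) with its probes A_52_P453884 and A_55_P2798990, and Foxo3 by 0.83 (SE 0.12), 0.83 (SE 0.25) and 1.17 (SE 0.10) with its 3 probes, all called by limma. The call for A_55_P2735425 was lost without siControl day 0 replicate 3 (adjusted p 0.0614) and without siControl day 2 replicate 1 (0.0515) or 2 (0.065). In siBach1 cells the Foxo1 differences were 0.70 and 0.86, and those of Foxo3 were 0.39, 0.09 and 1.01, where 0.09 (A_55_P2735425) was not called and the call at 0.39 (A_55_P2506540, adjusted p 0.0147) was lost in 9 of its other settings, among them normexp correction (adjusted p 0.118), quantile normalization (0.161) and no filter (0.055), and leaving out siBach1 day 0 replicate 1 (0.0543) or 2 (0.0556) or siBach1 day 2 replicate 3 (0.057). Foxo6, the remaining family member, was higher with silencing at day 0 by 0.48 (SE 0.09, limma, adjusted p 0.00502), differed by -0.03 at day 2, and was higher at day 2 by 2.13 in siControl and 1.62 in siBach1 cells.

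**Figure D4:**
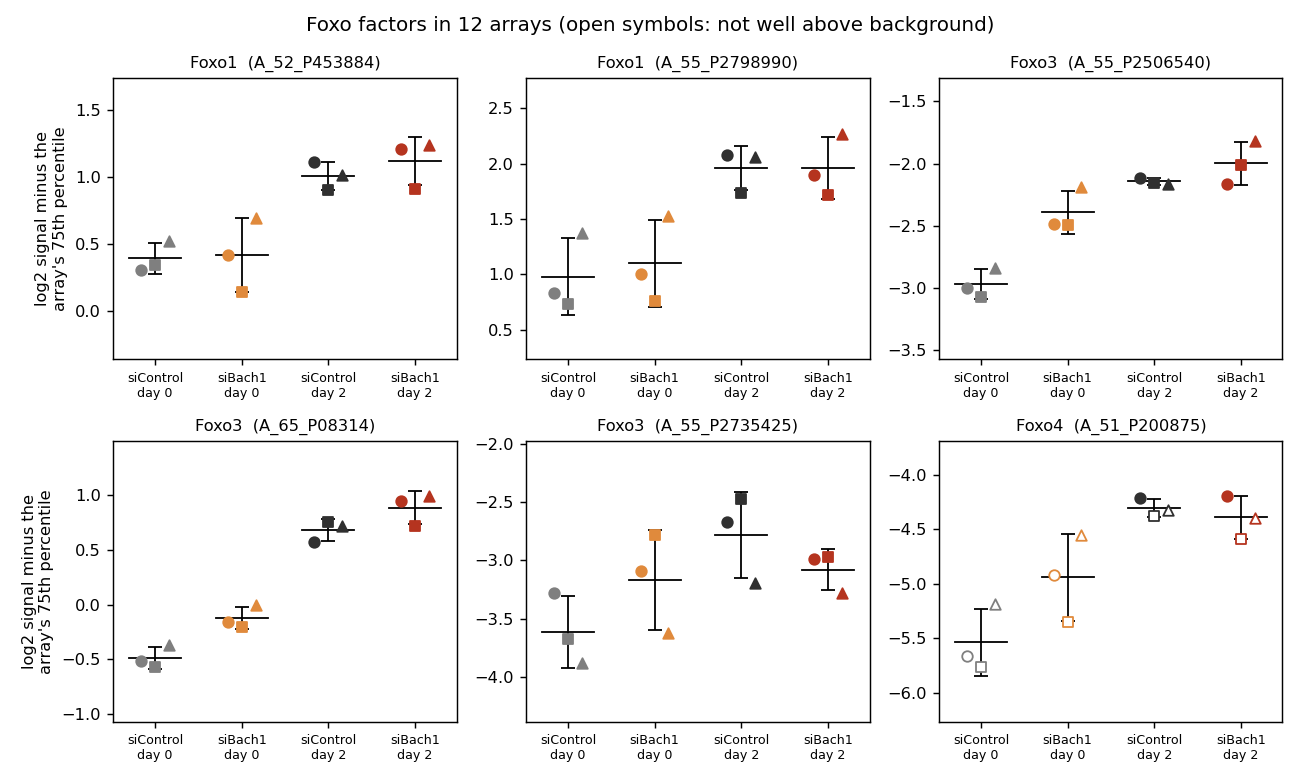
Log2 signal minus the array's 75th percentile of the Foxo1 and Foxo3 probes and 1 Foxo4 probe in the 4 groups, with symbols for replicates 1 (circle), 2 (square) and 3 (triangle), lines for the mean and SD of 3 arrays and open symbols where the probe was not well above background. The Foxo1 panels separate by day and not by siRNA, and in the Foxo3 panels for A_55_P2506540 and A_65_P08314 the siBach1 arrays lie above the siControl arrays at day 0.

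Genes that act on Foxo factors were taken from a list of 20 (kinases, receptors, adaptors and cofactors), each on 1 probe. At day 0 with silencing 2 were higher, 1 was lower and 17 were not called, where 19.9% of 15642 genes were called, 10.1% higher and 9.83% lower, and the list's median was 0.19 against 0.08 for all genes. Irs1, the adaptor of insulin and IGF receptors, was higher by 0.42, and Usp7, a deubiquitinase that acts on Foxo4, by 0.26. At day 2 also 2 were higher and 1 lower, where 13.8% of genes were called, 6.37% higher and 7.4% lower, with Ppargc1a at 1.13 (SE 0.17, limma, adjusted p 0.00326) and Irs1 at 0.39. From day 0 to day 2, 8 were higher and 5 lower in siControl and 9 higher and 4 lower in siBach1 cells. Of all genes, 57.7% were called in siControl (27.7% higher, 30% lower) and 59.9% in siBach1 cells (26.6% higher, 33.2% lower). The list was led by the kinase Sgk1 (-1.69 and -1.51), Ppargc1a (1.32 and 2.14) and Skp2 (-1.31 and -2.001), the F-box protein that marks Foxo1 for breakdown. Ppargc1a encodes a coactivator of mitochondrial genes that restrains Foxo3 in muscle.

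Other genes described as Foxo targets moved in both directions. Of 29 tested, 6 were higher and 3 lower with silencing at day 0 (median 0.15, against 0.08 for all genes), where 19.9% of genes were called, 10.1% higher and 9.83% lower. At day 2, 4 were higher and 5 lower (median -0.08, against -0.03 for all genes), where 13.8% of genes were called, 6.37% higher and 7.4% lower. Pdk4, the kinase that inhibits pyruvate dehydrogenase, was higher at both days, by 1.82 (SE 0.22, limma, adjusted p 3.96e-04) and 1.91 (SE 0.22, adjusted p 7.36e-04), with signals of 0.31 to 0.88 against 2.07 to 2.87 at day 0 and of -0.52 to -0.18 against 1.51 to 1.79 at day 2. Cdkn1b, the cell cycle inhibitor p27, was also higher at both days, by 0.61 and 0.49, and the autophagy kinase Ulk1 was higher at day 0 by 0.67. Eif4ebp1, a repressor of translation, was lower at day 2 by -0.69. From day 0 to day 2, 14 of the 29 were higher and 3 lower in siControl and 10 higher and 4 lower in siBach1 cells, led in both by Gadd45a (2.87 and 2.19), Pink1 (2.02 and 1.67) and Txnip (1.98 and 1.59), where 57.7% of genes (27.7% higher, 30% lower) and 59.9% (26.6% higher, 33.2% lower) were called. The silencing effect differed between days for 3 of the 29, Sesn1 (0.72), Ccng2 (-0.72) and Ddit4 (-0.63), where 5.81% of genes were called, 3.07% higher and 2.74% lower.

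**Figure D5:**
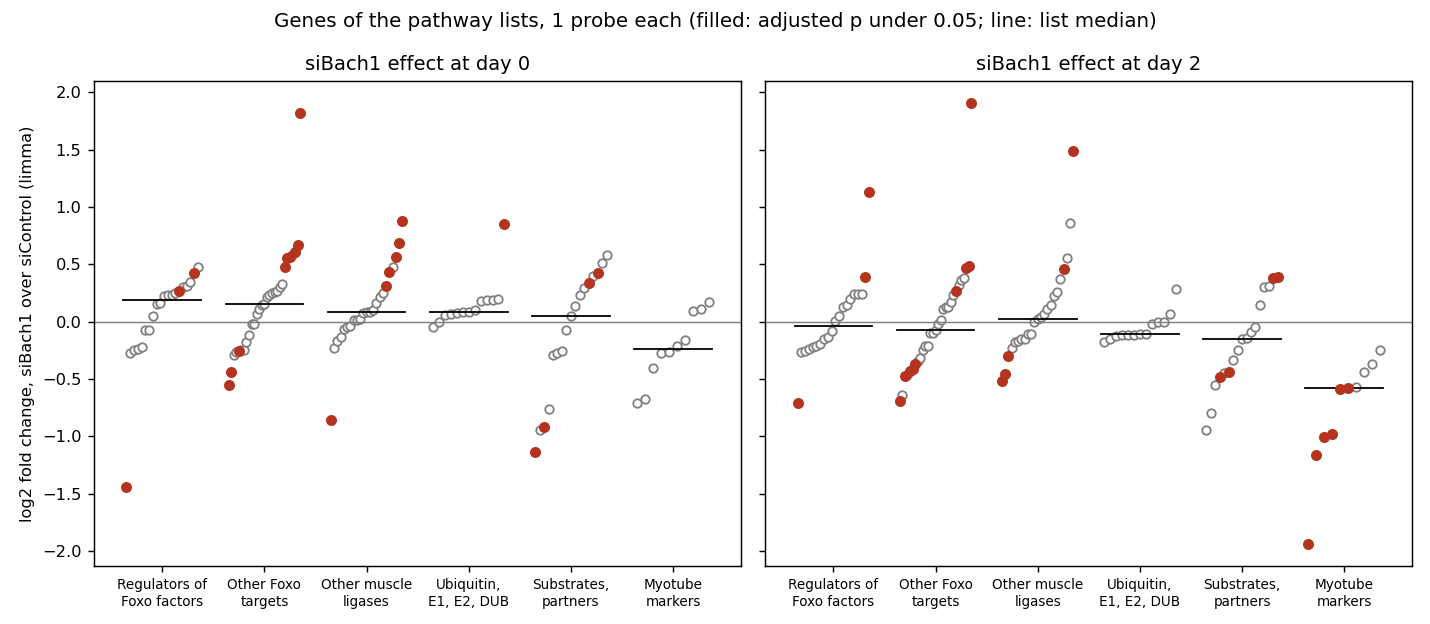
Log2 fold changes of siBach1 over siControl (limma, vertical axis) at day 0 and day 2 for the genes of 6 lists, 1 probe each and sorted within a list, with a line at the list's median. Filled points have an adjusted p under 0.05. At day 2 the myotube markers lie lowest, with a median of -0.58 and 6 of 10 filled, and in the other lists filled points lie on both sides of 0 or are absent.

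Further ubiquitin ligases and adaptors of muscle were counted in the same way. With silencing 5 of 23 were higher and 1 lower at day 0, led by Klhl41 at 0.88, Itch at -0.86 and Klhl40 at 0.69, and 2 were higher and 3 lower at day 2, led by Asb2 at 1.49, Itch at -0.51 and Nedd4l at 0.46, where 19.9% and 13.8% of genes were called. Klhl40 and Klhl41 are adaptors that stabilise proteins of the thin filament, and Asb2 is an adaptor that targets filamins during muscle differentiation. Between days 9 were higher and 5 lower in siControl and 9 higher and 9 lower in siBach1 cells, where 57.7% and 59.9% of genes were called, with Klhl41 at 5.00 and 4.98 and Fbxl22 at 4.74 and 5.04, and with Asb2 at least 11.6-fold and 28.7-fold higher at day 2. The effect of silencing differed between days for 2 of the 23, Klhl40 (-0.92) and Rbx1 (-0.55). Of all genes, 5.81% were called for this difference, 3.07% higher and 2.74% lower. Of 13 ubiquitin genes, activating and conjugating enzymes and deubiquitinases, 1 was higher at day 0, the conjugating enzyme Ube2d1 at 0.85 (SE 0.10, limma, adjusted p 3.35e-04), and 0 were called at day 2, where 1 had an unadjusted p under 0.05 by limma. Between days 3 of the 13 were higher and 5 lower in siControl and 1 was higher and 6 lower in siBach1 cells, led by Ube2d1 in siControl (0.95) and with Ube2j1 at -0.67 and -0.84 and the deubiquitinase Usp14 at -0.64 and -0.73 and the conjugating enzyme Ube2e1 at -0.64 and -0.65. The effect on Ube2d1 differed between days by -0.86.

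The mRNAs of proteins described as substrates or partners of these ligases were higher at day 2 for 14 of 17 genes in siControl cells. In siBach1 cells 13 of 17 were higher, and 1 was lower with each siRNA. Of all genes, 27.7% in siControl and 26.6% in siBach1 cells were higher. Ckm, muscle creatine kinase, was higher by 6.75 and 6.78, and Myh7, a slow myosin heavy chain, by 5.13 and 5.09. Mybpc2, a fast myosin-binding protein, was above background on 0 of 3 siControl arrays at day 0, and its level at day 2 was at least 32.8-fold higher. With silencing 2 were higher and 2 lower at each day, where 19.9% of genes were called at day 0 and 13.8% at day 2. Ppp3ca, the catalytic subunit of calcineurin, was lower at both, by -0.92 and -0.44, Tcap, a titin cap protein, was lower at day 0 by -1.13, and Myod1, a substrate of the ligase containing Fbxo32, was lower at day 2 by -0.48 (SE 0.13, limma, adjusted p 0.0365). The silencing effect differed between days for 0 of the 17 by limma, where 5.81% of all genes were called. By the same fit 3 of the 17 had an unadjusted p under 0.05.

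The genes whose signals ran most nearly parallel to a ligase over the 12 arrays were found by Pearson's correlation among 13557 other genes. For Fbxo32 these were Zfp36l1 (r = 0.997), App (r = 0.997) and Rmdn1 (r = 0.996), for Trim63 they included Hrc (r = 0.999) and Srl (r = 0.998), and for Trim54 Zbtb18 (r = 0.996), Pmaip1 (r = 0.995) and Mmp15 (r = 0.995). Hrc and Srl encode calcium-binding proteins of the sarcoplasmic reticulum. Such values are set mostly by the difference between days, which 53.4% of probes shared in siControl. After the mean of each day was subtracted, the nearest gene was Cacna2d1 for Fbxo32 (r = 0.986), Wfs1 for Trim54 (r = 0.993), Ccdc71l for Trim63 (r = 0.942) and Sgms1 for Fbxo30 (r = 0.963). The points are 12 arrays in 4 groups, so these correlations describe the arrays and carry no test.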

How the data were processed

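The 12 samples of C2C12 total RNA carried Cyanine 3 on Agilent 8×60K mouse arrays. The authors deposited each array's scanner output, with a background-subtracted intensity per spot, and a table of normalized log2 values. Feature Extraction made the scanner files, version 9.1 per the submitters' processing notes and 10.7.3.1 per the file headers. Control spots and 76 to 110 outlier spots per array were removed, 0 spots were saturated, log2 intensities of repeated spots were averaged, and the 75th percentile of an array was taken from its values. Once centred on each probe's median, as the deposited log2 values are, the result differed from them by a median of 0.00096.

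The 4 groups were fitted in limma 3.58.1 (R 4.3.3) on 12 arrays with no block, over 29664 probes. Python 3.11 with numpy 2.4.6, pandas 2.3.3 and matplotlib 3.10.9 did the reading and plotting. A simulated log2 change of 1 in 200 of 29664 probes at day 2 was recovered for 63%, with 8 false calls. The labels do not say that replicates were separate cultures, and p-values then measure only the spread between these samples. The main fit did not pair samples by replicate number, and it called 4 of the 15 probes for silencing at day 0, against 7 with the replicate block. Arrays with the same replicate number deviated together (18 pairs, r 0.142 to 0.595, all above 0.1), but were paired only in the replicate block alternative. They also share a row of a slide, and each group has its own column of array positions, so pairing and row, and position and group, cannot be told apart. Slide 1 holds replicates 1 and 2 and slide 2 replicate 3.

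All probes of the 10 genes are named. Of the other lists, each gene is counted on the probe above background on most arrays, and up to 3 called genes with the largest change are named per comparison. The genes most like a member are those with the highest correlation. A few genes that these rules name are not reported here. The genes and lists were chosen with earlier results of these data known. Symbols come from the deposited table. The accessions of 14 of the 18 probes were found in the RefSeq table, all 14 under the same symbol. Promoters are RefSeq's (GRCm38.p6), matched by symbol.

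Alternatives were normexp correction of the median signal (offset 50), quantile normalization, the authors' log2 values, other filters, replicate or slide as a block, slide 1 alone, only the arrays compared, a robust prior with trend, the methods' t-test, a fold limit of 2, each array left out and a single probe per gene.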

Additional observations from a re-analysis of the deposited data

Results flagged for a closer look

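The effect of silencing on Trim54 differed between the days, by -0.87 as the effect at day 2 minus that at day 0 (SE 0.11, limma interaction, adjusted p 0.00619). It was 0.97 at day 0 and 0.10 at day 2, and the siControl arrays had risen to 4.65 to 4.66 by day 2. For Fbxo40 A_52_P279557 the fitted value was 2.30 (SE 0.46, limma interaction, adjusted p 0.0241). At day 0 this probe was above background on 0 of 6 arrays, and it was tested only through siBach1 cells at day 2, where it is high, so this is a description and not a measured difference. Left-out arrays gave -0.91 to -0.81 for Trim54 and 2.01 to 2.58 for Fbxo40. The Fbxo40 call was lost without siControl day 0 replicate 1 (adjusted p 0.057) or 2 (0.0627) and without siBach1 day 2 replicate 1 (0.0657) or 3 (0.0547). Groups of 3 arrays are too small for a test of single outlying arrays.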

How the results depend on the processing

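Of 865 values of single probes under other processing, 791 kept their direction and side of the threshold, 30 lost a call, 31 gained one, 13 changed sign without a call on either side, and none with a call reversed. With 1 array left out these were 837, 29, 6 and 28 of 900. Fbxo32 at both days and Trim54 at day 0 were called throughout. The number of these probes called for silencing at day 0 (4, with 17.1% of all tested probes called) was 7 with the replicate block (27.5%) or the slide block (28%), 2 with the methods' t-test after Benjamini-Hochberg adjustment (10.5%) and 1 with a fold limit of 2 (2.79%). At day 2 (3, with 12%) it was 5 with normexp correction (11.8%), 8 with the methods' t-test unadjusted (24.2%) and 1 with the fold limit (2.17%). For the difference between days (2, with 4.59%) it was 1 with normexp correction (5.48%), quantile normalization (3.84%), the fold limit (1.44%) or probes above background on all 12 arrays (6.52%), 4 with the slide block (13.7%) or the methods' t-test unadjusted (22.3%), 3 with the replicate block (13%), and 0 by limma with no filter (0.0866%) or on slide 1 alone (0.378%), where 4 and 4 probes had an unadjusted p under 0.05. From day 0 to day 2 in siControl (12, with 53.4%) it was 7 with 1 probe per gene (57.7%), which tests 9 probes. Left-out arrays gave 3 to 5 and 2 to 4 calls for silencing at day 0 and day 2, 1 to 2 for the difference, and 10 to 12 and 11 to 12 from day 0 to day 2 in siControl and siBach1. Besides the calls named above, the replicate block changed no other call of these probes. The cause of these changes was not tested. Fbxo40, Foxo4 and the dimmer Trim63 and Mul1 probes lie near the background, where signal limits every value, and 3 arrays a group limit the precision.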
